A study of Mus musculus with 4 samples.

Results

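The genes described are those encoding the protein components of the cytosolic ribosome, measured in cultured microglia, the macrophages that reside in the mouse brain. Members were taken by symbol: every gene named Rpl or Rps followed by a digit, plus Rpsa, Rplp0, Rplp1 and Rplp2, leaving out symbols ending in -ps and the Rps6k kinases. This gave 63 genes of 19938 with a probe set that carries 1 gene symbol. Where a gene had several such probe sets, it was chosen by the highest mean level over the arrays, so the measured levels entered the choice of probe set. Of the 63 members, 54 are canonical ribosomal proteins (21 of the small subunit, 30 of the large subunit and 3 of the P stalk), and 9 are paralogs or other genes that share the naming. A list of 77 canonical genes holds a further 16 that were named here only by probe sets with several symbols, and 7 that were not analysed here.

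The 4 groups of microglia were measured on Affymetrix Mouse Gene 1.0 ST arrays, with 1 array per group. They were cells labelled Bid-/- and given lipopolysaccharide (LPS) for 3 h, cells labelled Bid-/- without an agent, wild-type (WT) C57Bl cells given LPS for 3 h, and WT C57Bl cells without an agent. Bid, a pro-apoptotic relative of Bcl-2 with a BH3 domain alone, links death receptors to mitochondria, and LPS is a bacterial cell wall component sensed through the receptor TLR4. The labels give a strain for WT cells alone; sex, age and the number of animals or cultures were not known here. Since a single array stands for each group, no value can be checked on replicates, and a difference between single arrays is described on the log2 scale without a p-value; the p-values given come from 1 additive limma fit over all 4 arrays.

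Cytosolic ribosomes are built from ribosomal RNA and a set of proteins made in near-equal numbers, so their genes are usually transcribed and translated together. The small subunit reads the messenger RNA, the large subunit joins amino acids, and the P stalk of the large subunit recruits and activates the elongation factors. Many of these messenger RNAs begin with a run of pyrimidines, the 5' TOP motif, through which the kinase mTOR controls their translation, and many of their promoters lack a TATA box and hold sites of the ETS type. In macrophages, LPS is known to set off mTOR signalling and a broad change in translation.

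The promoters of canonical members with the lowest and the highest difference between genotype labels under LPS are shown first, because the extremes of the family can then be set side by side. The runs come from RefSeq (assembly GRCm38.p6), read 5' to 3' on the strand of the gene. Each holds 90 bases before the first listed annotated start and 30 bases from it, so that base 91 is the start. Rps19 had 3 listed starts, Rpl34, Rpl10a and Rps21 had 2 each, and Rpl12, Rpl14 and Rpl4 had 1 each. Capitals mark the ETS-type letters CGGAAG, or CTTCCG where they lie on the other strand. The first 4 had the lowest differences: Rps19 at chr7:24884502-24884621 (plus strand), Rpl34 at chr3:130730369-130730488 (minus strand), Rpl10a at chr17:28328381-28328500 (plus strand) and Rps21 at chr2:180257289-180257408 (plus strand). The other 3 had the highest: Rpl12 at chr2:32961622-32961741, Rpl14 at chr9:120571427-120571546 and Rpl4 at chr9:64173297-64173416, all on the plus strand. Rpl30 is named among the highest without a sequence.
Rps19: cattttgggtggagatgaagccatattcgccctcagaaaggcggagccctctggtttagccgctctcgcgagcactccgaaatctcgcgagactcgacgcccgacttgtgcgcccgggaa
Rpl34: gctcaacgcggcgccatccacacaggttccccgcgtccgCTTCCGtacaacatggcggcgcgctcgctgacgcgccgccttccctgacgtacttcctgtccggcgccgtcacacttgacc
Rpl10a: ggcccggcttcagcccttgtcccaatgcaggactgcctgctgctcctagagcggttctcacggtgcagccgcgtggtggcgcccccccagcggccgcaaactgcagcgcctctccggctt
Rps21: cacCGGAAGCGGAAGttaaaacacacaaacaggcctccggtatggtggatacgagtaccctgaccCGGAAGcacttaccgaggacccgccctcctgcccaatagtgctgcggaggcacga
Rpl12: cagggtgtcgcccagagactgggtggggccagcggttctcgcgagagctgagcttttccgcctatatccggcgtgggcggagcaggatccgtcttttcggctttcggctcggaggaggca
Rpl14: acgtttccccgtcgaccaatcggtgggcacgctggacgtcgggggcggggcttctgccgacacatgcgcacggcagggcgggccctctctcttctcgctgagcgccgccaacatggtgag
Rpl4: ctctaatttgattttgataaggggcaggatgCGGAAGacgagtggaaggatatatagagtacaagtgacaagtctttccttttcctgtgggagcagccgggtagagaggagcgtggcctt

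An ETS-type match lay in the printed run of Rps21 (3 matches) and Rpl34 (1 match) among the lowest. Among the highest it lay in that of Rpl4 (1 match). The letters in these runs did not separate the extremes, and the other starts of the lowest genes are not shown. Over the full 300-base windows, which run from 250 bases before the start to 50 after it, 43 canonical members had an entry, with 50 windows for their annotated starts. CGGAAG or CTTCCG was found in 33 of the 50 windows (66.0%), against 30.1% of 11501 windows of genes that reached the detection floor and 16.9% of all 32851 windows. A run of at least 9 C or T bases within 30 bases on either side of the start was found in 40.0% of canonical windows, against 15.1% and 15.6%. A start at C that opens a run of at least 5 C or T bases, the TOP-like arrangement, was found in 9 windows (18%), against 2.4% and 2.5%. The other letters searched on both strands lay nearer to the genes over the floor: AAGATGG (YY1-type) in 8.0% against 7.1% and 6.3%, TATAAA in 10.0% against 7.5% and 13.6%, CACGTG in 14.0% against 10.0% and 7.2%, and GGGCGG in 60.0% against 61.5% and 35.7%. Motifs were counted separately, whether or not they overlapped, and a match is a description of letters, not a site. Canonical members with an ETS-type match in any window had a median genotype difference under LPS of -0.56 (31 genes), and those without one had -0.575 (12 genes).

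The members' probe sets were bright on every array. The median over canonical members was 9.55 on the LPS array labelled Bid-/-, 9.81 on the control array so labelled, 10.07 on the WT LPS array and 9.84 on the WT control array. The median over all genes at or above the floor was 6.14, 6.30, 6.12 and 6.26 on the same arrays. The floor was 4.26, the median probe set's mean level, and 61 members reached it on at least 1 array. The 2 that did not were Rpl39l and Rpl3l, paralogs known from testis and from striated muscle. Just inside the floor stood Rpl10l, a testis paralog, with 4.06, 4.05, 4.30 and 4.17 on the arrays in that order. It reached the floor on the WT LPS array alone, its highest, and so entered only the comparisons that use that array. Its sign in their counts is partly set by that entry. Just outside stood Rpl39l, with 3.24, 3.43, 3.92 and 3.62.

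**Figure D1:**
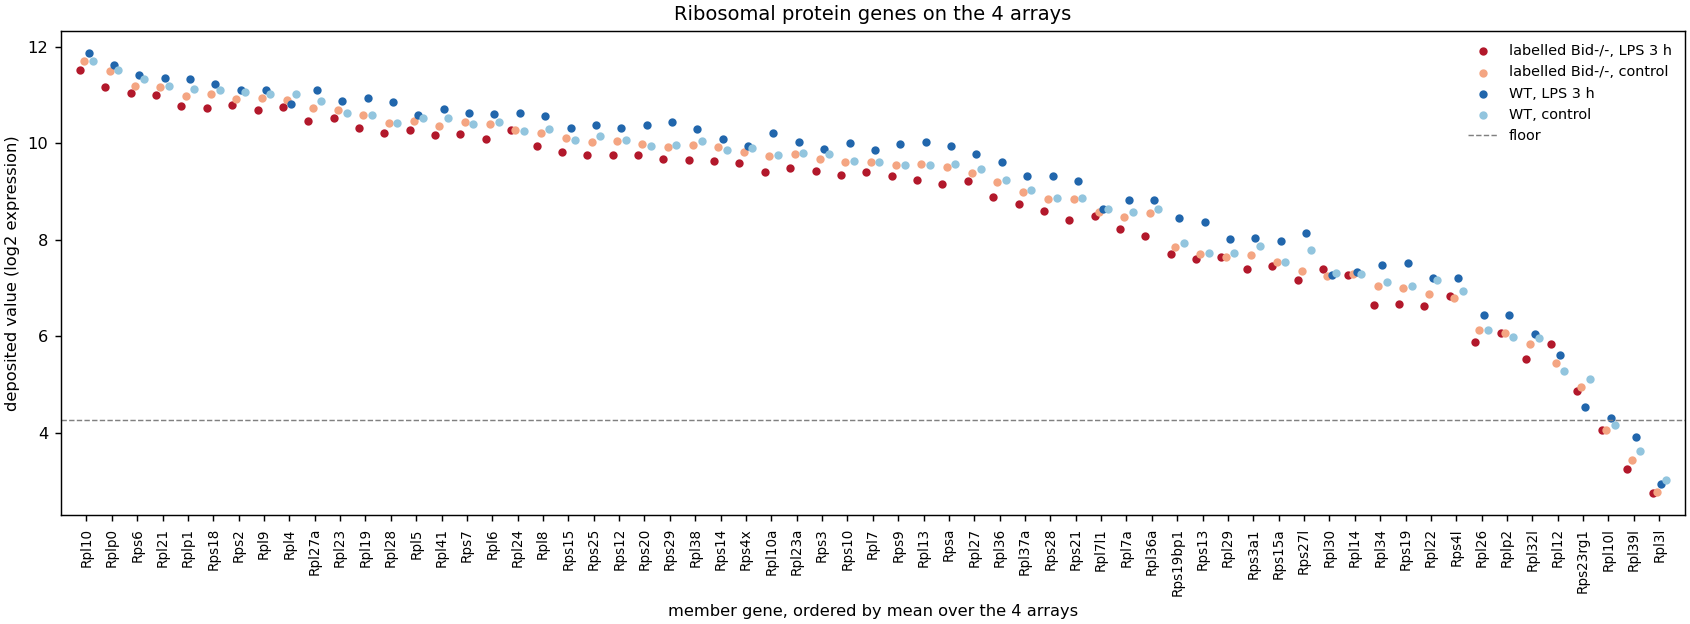
Deposited log2 value of each of the 63 members (x axis, ordered by the mean over the arrays) on the 4 arrays, with the floor of 4.26 as a dashed line. For 52 of the 61 members that reach the floor, the WT LPS point is the highest and the LPS point labelled Bid-/- the lowest.

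The order of the 4 arrays was the same in most of the family. In 52 of 61 members the WT LPS array was the highest and the LPS array labelled Bid-/- the lowest, with both control arrays between them. Among all 11326 genes that reached the floor on any array, 11.3% had this order. That order requires an LPS change below 0 for the pair labelled Bid-/- and above 0 in WT. The same 52 of 61 members had these signs, against 16.9% of all genes, so this count is no separate support. Of the canonical members, 49 of 54 showed either pattern. The members outside the first pattern were Rpl10l, Rpl12, Rpl24, Rpl30, Rpl4, Rpl7l1, Rplp2, Rps23rg1 and Rps4l. The brightness of a probe set depends on its probes, so a higher signal of one gene than of another is not read as more transcript.

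In cells labelled Bid-/-, the LPS array stood below its control for nearly all members, by a small amount. The median LPS change was -0.25 over 60 members that reached the floor (a ratio of 0.841), against -0.10 over 10995 genes. It was below 0 in 55 members, above 0 in 3 and exactly 0 in 2, while 60.1% of all genes lay below 0. No member was at least 1.5-fold lower, against 10.4% of all genes, and none was 1.5-fold higher. The members' changes ran from -0.46 (Rpl36a) to 0.39 (Rpl12). With the intensity trend removed, the median over all genes was 0.01 and that over members -0.12; with the span trend removed, the members' median was -0.10.

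In WT cells the LPS array stood above its control by a similar amount. The median change was 0.25 over 61 members (a ratio of 1.19), against -0.05 over 11129 genes. It was above 0 in 57 members, below 0 in 3 and exactly 0 in 1, while 44.0% of all genes lay above 0. One member, Rps13, was at least 1.5-fold higher, at 0.63, against 5.80% of all genes. The lowest change was -0.58, in Rps23rg1. The changes in the 2 genotypes rest on separate pairs of arrays, and across the canonical members they were nearly unrelated (Pearson's r -0.08 and Spearman's rho -0.14 across 54 genes, which share arrays and are not independent).

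**Figure D2:**
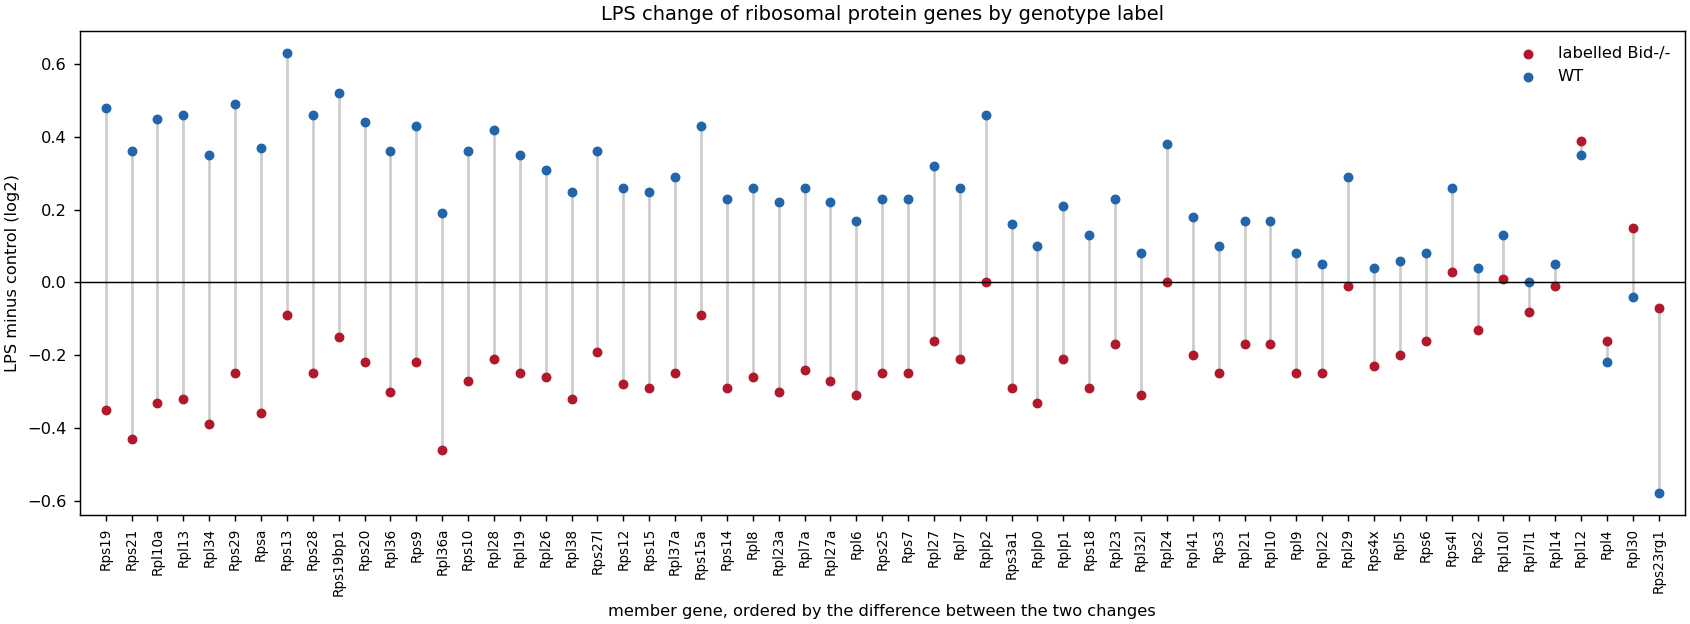
LPS minus control (log2) for each member that reaches the floor, on the arrays labelled Bid-/- (red) and in WT (blue), ordered along the x axis by the difference between the changes. Most red points lie below 0 and most blue points above it; Rpl12, Rpl4, Rpl30 and Rps23rg1 stand at the right end.

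Under LPS the array labelled Bid-/- read lower than the WT array across the family. The median difference was -0.54 over 61 members (a ratio of 0.688), against 0.01 over 11044 genes. It was below 0 in 58 members and above 0 in 3, while 47.8% of all genes lay below 0. At least 1.5-fold lower were 24 members, against 6.07% of all genes, and none was 2-fold lower. The quartiles over members were -0.65 and -0.37. When the trend of this difference with gene span over all genes was removed, the median was -0.34 and 5 members were at least 1.5-fold lower. The share of all genes that low was not counted with the trend removed.
Without LPS the same contrast between labels was close to 0. Its median was -0.05 over 60 members, with a range from -0.43 (Rps27l) to 0.18 (Rpl12), against 0.01 over 10909 genes. It was below 0 in 46 members, above 0 in 10 and exactly 0 in 4, while 45.8% of all genes lay below 0. No member was at least 1.5-fold lower, against 0.44% of all genes.

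Subtracting the LPS change in WT from the change for the pair labelled Bid-/- puts these values together. The median of this difference was -0.48 over 61 members, against 0.00 over 11326 genes. It was below 0 in 57 members and above 0 in 4, while 49.1% of all genes lay below 0. At least 1.5-fold lower were 17 members, against 6.06% of all genes. This value shares its LPS arrays with the genotype difference above, so it is no separate support for it. With the span trend removed the median was -0.29 and 1 member was at least 1.5-fold lower, again without a count over all genes.

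**Figure D3:**
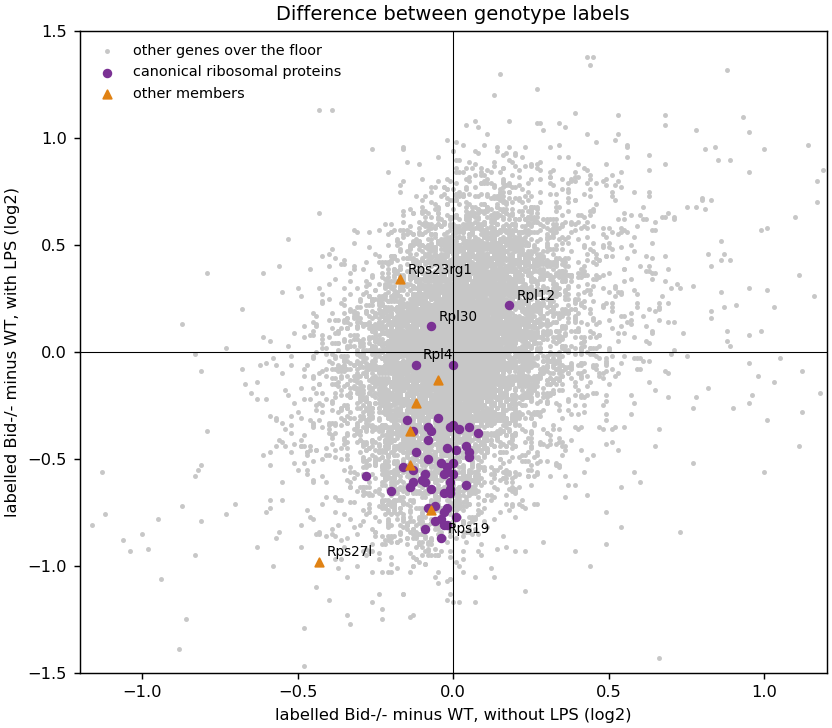
Difference between genotype labels (labelled Bid-/- minus WT, log2) without LPS (x axis) and with LPS (y axis) for genes that reach the floor; 29 of 11326 points lie outside the axes. Canonical members gather near 0 on the x axis and between -0.87 and 0.22 on the y axis, and Rps27l, at -0.43 and -0.98, lies farthest to the lower left among members.

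The small subunit was lower throughout under LPS on the array labelled Bid-/-. All 21 members had a genotype difference under LPS below 0, against 47.8% of all genes. The values ran from -0.87 to -0.32, with a median of -0.61. At least 1.5-fold lower were 11 members, against 6.07% of all genes. The 21 members had a median LPS change of -0.25 on the arrays labelled Bid-/- and 0.26 in WT, and none had the opposite sign in either. Without LPS their median difference between labels was -0.03.
Rps19, mutated in Diamond-Blackfan anaemia in humans, read 6.66 on the LPS array labelled Bid-/-, 7.01 on its control, 7.53 on the WT LPS array and 7.05 on the WT control. The control arrays differed by -0.04 and the LPS arrays by -0.87, the lowest value of any canonical member on the probe sets used. Rps21 read 8.42, 8.85, 9.23 and 8.87 on the arrays in the same order, and its LPS arrays differed by -0.81. Its other, dimmer probe set differed by -1.06, and the mean of its probe sets by -0.935, lower than Rps19. Rpsa, which is also known as the laminin receptor precursor, read 9.16, 9.52, 9.95 and 9.58, a difference of -0.79 under LPS. In all 3 the control arrays lay within 0.06 of each other.
Rps29, a small zinc-binding protein near the messenger RNA path, read 9.67, 9.92, 10.45 and 9.96 on the arrays in that order. Rps13 read 7.61, 7.70, 8.36 and 7.73. Both stood out on the WT LPS array more than on the LPS array labelled Bid-/-: the LPS change was -0.25 and -0.09 for the pair labelled Bid-/-, against 0.49 and 0.63 in WT.
Rps6, the target of the S6 kinases, read 11.04 on the LPS array labelled Bid-/-, 11.20 on its control, 11.41 on the WT LPS array and 11.33 on the WT control. Its LPS change was -0.16 on the arrays labelled Bid-/- and 0.08 in WT. Rps3, which lines the entry of the messenger RNA channel, read 9.42, 9.67, 9.89 and 9.79. Rps14, lost with part of a chromosome arm in a human myelodysplastic syndrome, read 9.63, 9.92, 10.10 and 9.87. These 3 differed by -0.37, -0.47 and -0.47 between the LPS arrays.
Rps3a1, an early-binding small subunit protein, read 7.39, 7.68, 8.04 and 7.88, and at -0.20 had the lowest difference without LPS in the small subunit. Rps18 had an LPS difference between labels of -0.50 and Rps2 of -0.32. Rps15 differed by -0.49. The other small subunit members, Rps4x, Rps7, Rps9, Rps10, Rps12, Rps15a, Rps20, Rps25 and Rps28, lay between -0.73 (Rps28) and -0.35 (Rps4x).

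The large subunit showed the same order of arrays, with a few exceptions. Of 30 members, 28 had a genotype difference under LPS below 0 (47.8% of all genes), with a median of -0.56. At least 1.5-fold lower were 11 members, against 6.07% of all genes. The 30 members had a median LPS change of -0.25 on the arrays labelled Bid-/-, with 27 below 0 (60.1% of all genes). In WT it was 0.26, with 28 above 0 (44.0% of all genes).
Rpl34 read 6.65 on the LPS array labelled Bid-/-, 7.04 on its control, 7.48 on the WT LPS array and 7.13 on the WT control, a difference of -0.83 between the LPS arrays. Rpl10a, a protein of the L1 stalk, read 9.41, 9.74, 10.22 and 9.77 (difference -0.81). Rpl13 read 9.25, 9.57, 10.02 and 9.56 (difference -0.77). The control arrays of these 3 lay within 0.09 of each other.
Rpl36a read 8.09, 8.55, 8.82 and 8.63, and had the lowest LPS change for the pair labelled Bid-/-, -0.46. Rpl22, a protein that is not essential for viability in mice, read 6.63, 6.88, 7.21 and 7.16, and was lower on both arrays labelled Bid-/- (by -0.58 with LPS and -0.28 without). Rpl10, a late-joining protein near the catalytic centre, read 11.53, 11.70, 11.87 and 11.70.
Some free ribosomal proteins bind Mdm2 and so stabilise p53. Of these, Rpl5 read 10.27, 10.47, 10.58 and 10.52, Rpl23 read 10.52, 10.69, 10.87 and 10.64, and Rpl26, which also binds the p53 messenger RNA, read 5.88, 6.14, 6.45 and 6.14 on the LPS array labelled Bid-/-, its control, the WT LPS array and the WT control. Their differences between the LPS arrays were -0.31, -0.35 and -0.57. Rpl11, the best-known member of that group, had only probe sets with several symbols and is not reported singly, like Rpl3 and Rpl13a.
Rpl41, the smallest ribosomal protein, read 10.17, 10.37, 10.71 and 10.53, and Rpl21 differed by -0.35 between the LPS arrays. Apart from Rpl12, Rpl30, Rpl14 and Rpl4, described next, the remaining large subunit members lay between -0.72 (Rpl36) and -0.36 (Rpl24) for that difference.

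The large subunit members with the highest genotype differences under LPS were Rpl12, Rpl30, Rpl14 and Rpl4. Rpl12, a protein of the stalk base, read 5.84 on the LPS array labelled Bid-/-, 5.45 on its control, 5.62 on the WT LPS array and 5.27 on the WT control. It was higher with LPS under both labels, by 0.39 and 0.35, and higher on the arrays labelled Bid-/- in both conditions, by 0.22 with LPS and 0.18 without. Rpl30 read 7.40, 7.25, 7.28 and 7.32, so its LPS change had the opposite sign to the family under both labels (0.15 and -0.04).
Rpl14 read 7.28, 7.29, 7.34 and 7.29, the flattest of these members. Rpl4 read 10.75, 10.91, 10.81 and 11.03, and was lower with LPS under both labels, by -0.16 on the arrays labelled Bid-/- and -0.22 in WT. Each of these 4 genes had 1 probe set. Rpl12, Rpl30 and Rpl4 also fell outside the common order of the arrays, while Rpl14 kept it with small steps. Rpl24, the other large subunit member outside that order and described after its values were seen, read 10.27 on the LPS array labelled Bid-/-, 10.27 on its control, 10.63 on the WT LPS array and 10.25 on the WT control, so its lowest array was WT control. Their small genotype differences under LPS depended on the scaling: with the span trend removed, that of Rpl4 was 0.11 and that of Rpl14 0.15, against -0.06 for both as deposited, and Rpl4 had 0.12 after quantile normalization.

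The P stalk genes had the same direction with a smaller median, -0.45. Rplp0, the stalk's anchor and a common normaliser in quantitative PCR, read 11.17 on the LPS array labelled Bid-/-, 11.50 on its control, 11.62 on the WT LPS array and 11.52 on the WT control. Rplp1 read 10.78, 10.99, 11.33 and 11.12. Rplp2, its partner in the stalk, read 6.06, 6.06, 6.44 and 5.98, so its LPS change was 0.00 for the pair labelled Bid-/-, against 0.46 in WT. The differences between the LPS arrays were -0.45, -0.55 and -0.38, and none of the 3 reached 1.5-fold.

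The 9 members outside the canonical list were mixed. Rps27l, a paralog of Rps27 and a p53 target, read 7.16 on the LPS array labelled Bid-/-, 7.35 on its control, 8.14 on the WT LPS array and 7.78 on the WT control. It had the lowest genotype difference of all members in both conditions, -0.98 with LPS and -0.43 without. Rps27 itself was named only by probe sets with several symbols. Rps19bp1 encodes a protein that binds Rps19 and is not a ribosomal protein; it read 7.71, 7.86, 8.45 and 7.93, a difference of -0.74 under LPS beside -0.87 for Rps19.
Rpl7l1 stayed nearly flat at 8.50, 8.58, 8.63 and 8.63, with an LPS difference of -0.13 beside -0.46 for its paralog Rpl7. Rps4l, annotated as a transcribed pseudogene, read 6.83, 6.80, 7.20 and 6.94, with -0.37 beside -0.35 for Rps4x. Rpl32l read 5.52, 5.83, 6.05 and 5.97.
Rps23rg1, a gene retroposed from Rps23 in mice, read 4.87 on the LPS array labelled Bid-/-, 4.94 on its control, 4.53 on the WT LPS array and 5.11 on the WT control. Its single lowest array was WT LPS, which made it the highest member for the genotype difference under LPS (0.34). Rpl10l differed by -0.24 beside -0.34 for Rpl10, and by 0.05 with both the intensity and span trends removed. Rpl3l, with 2.74, 2.76, 2.94 and 3.02, stayed below the floor on all arrays.

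Processed copies of ribosomal protein genes are frequent in the mouse genome, so probe sets can pick up transcripts of several loci. The 63 members had 219 single-symbol probe sets; 39 members had more than 1, up to 14 (Rps12), and 24 had 1. In all 39, every probe set was below 0 for the genotype difference under LPS. In 37 of them every probe set was below 0 for the LPS change of the pair labelled Bid-/-, and in 38 every probe set was above 0 for that in WT. Within a gene the difference under LPS spread over 0.11 at the median and 0.34 at most, and 5 genes had probe sets with identical rows. A further 239 probe sets with several symbols, among them a symbol of the rule, had a median difference under LPS of -0.54, with 236 below 0; they can hold the same sequences as the members and are not independent of them.

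The LPS change in WT varied with probe set signal among canonical members, and the difference between LPS arrays was smaller in the brightest set alone. Split by mean signal into 3 sets of 18, the LPS change in WT had medians of 0.33 in the dimmest, 0.26 in the middle and 0.17 in the brightest set (Spearman's rho -0.40 across 54 genes, as a description). The difference between LPS arrays had medians of -0.59, -0.61 and -0.43 in the same sets. The LPS change for the pair labelled Bid-/- had medians of -0.25, -0.265 and -0.205 (Spearman's rho 0.04 and Pearson's r -0.34 with signal). Probe sets near the top of the intensity range can be compressed; the part of this in the medians was not tested.

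The additive limma model asks which genes changed alike under both labels or in both conditions, and it has 1 residual degree of freedom. An unadjusted limma p under 0.05 for LPS was found in 1 of 61 members (Rpl12), against 3258 of all 11326 genes. No member was called for LPS at an adjusted p of 0.05, against 3.24% of all genes. The number of all genes called for LPS depended strongly on the settings: it was 367 of 11326 here, 0 of 19938 without a floor, 1928 of 11308 after quantile normalization and 2102 of 11326 with noise added within the rounding, so the share above is a loose background. The mean LPS change of Rpl12 was 0.37 (SE 0.11, limma adjusted p = 0.1244 with Benjamini-Hochberg adjustment). No member was called for genotype, against 0.0% of all genes (709 genes had an unadjusted p under 0.05). Rps27l (-0.71, SE 0.20) and Rpl22 (-0.43, SE 0.15) were the 2 members with an unadjusted p under 0.05 for genotype, both with a limma adjusted p of 0.6228. A family whose LPS changes have opposite signs under the labels puts those changes into this model's error, so a count of 0 says little about it.

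Gene groups tied to the ribosome by function did not all share the pattern. Fau, which encodes the small subunit protein eS30 outside the symbol rule, read 9.65 on the LPS array labelled Bid-/-, 9.84 on its control, 10.27 on the WT LPS array and 9.75 on the WT control, a difference of -0.62 between the LPS arrays. Of 20 measured genes on a list of elongation factors and other TOP messenger RNAs, 15 were below 0 for that difference, against 47.8% of all genes. At least 1.5-fold lower were 5 of them, against 6.07% of all genes. The median over these 20 genes was -0.33, but their median LPS change in WT was 0.01. Eef1e1, a component of the aminoacyl-tRNA synthetase complex (-0.93), and Eif3k, an initiation factor subunit (-0.76), were the lowest. The intermediate filament gene Vim (0.35) and the poly(A)-binding protein gene Pabpc1 (0.38) were the highest. Eef1e1 shares the elongation factor naming but is not itself an elongation factor, and it is among the 5 counted as at least 1.5-fold lower.
Genes that build or control ribosomes lay nearer 0. For the difference between LPS arrays, 23 initiation factors had a median of -0.01 (Eif3i -0.88, Eif1ax -0.85, Eif3b 0.36, Eif4g3 0.47), and 38 ribosome biogenesis genes -0.13 (Nop10 -0.86, Nhp2 -0.76, Polr1b 0.23, Tcof1 0.45). The mTOR and S6 kinase pathway had 0.05 over 16 genes, from -0.53 for Eif4ebp1, a repressor of cap-dependent translation, to 0.58 for Mtor. Transcription factors linked to these promoters had -0.02 over 9 genes, from Myc (-0.70) and Tbp (-0.20) to Gabpa (0.31), an ETS factor, and Taf1 (0.58). Mdm2 (0.29), Mdm4 (0.68) and Cdkn2a (0.02) stood above 0.

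**Figure D4:**
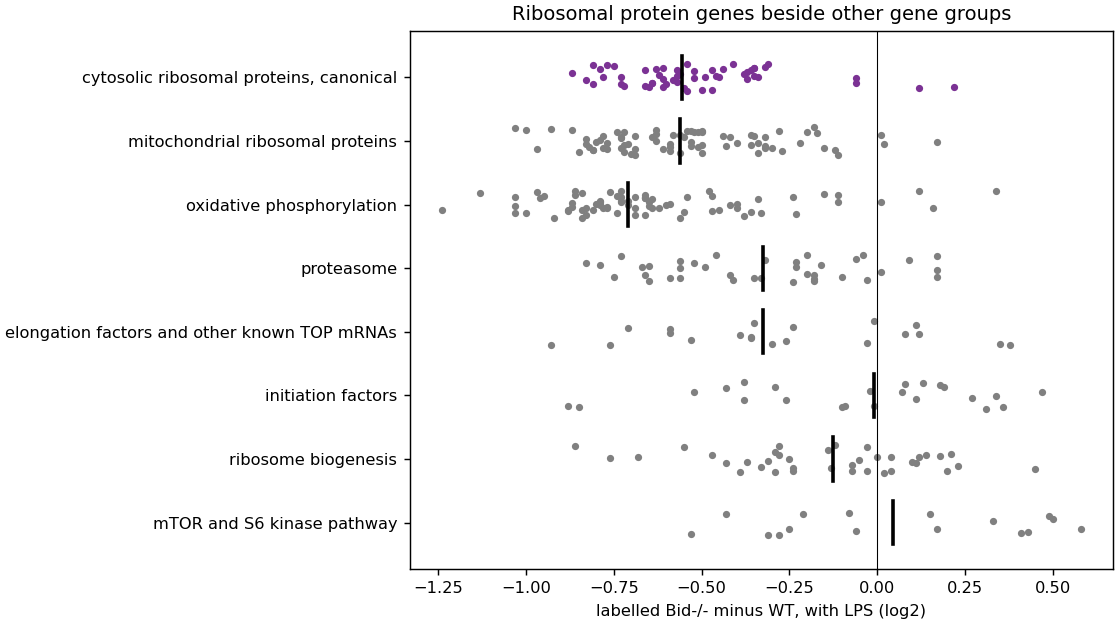
Difference between genotype labels under LPS (labelled Bid-/- minus WT, log2, x axis) for genes of 8 groups; each point is a gene over the floor and each black bar the group's median. The median is -0.56 for canonical cytosolic and for mitochondrial ribosomal proteins, -0.71 for oxidative phosphorylation subunits and 0.05 for the mTOR and S6 kinase pathway.

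The shift was not confined to cytosolic ribosomal proteins. The 77 genes of the mitochondrial ribosome had a median difference between LPS arrays of -0.56, with 74 below 0 and 37 at least 1.5-fold lower, and 77 oxidative phosphorylation subunits had -0.71, with 73 below 0 and 54 at least 1.5-fold lower. The 38 proteasome subunits had -0.33, with 33 below 0. Over all genes, 47.8% lay below 0 and 6.07% were at least 1.5-fold lower. The median LPS change for the pair labelled Bid-/- was -0.39 for mitochondrial ribosomal proteins, -0.38 for oxidative phosphorylation subunits and -0.18 for the proteasome. In WT the same 3 medians were 0.09, 0.20 and 0.17. No test of a difference between groups was possible with 1 array each.

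Gene span moved with the result. The 61 members over the floor had a median span of 3269 bp from first to last annotated base (592 to 16779), against 21101 bp over 11299 genes, and over 11017 genes a longer span went with a higher difference between LPS arrays (Spearman's rho 0.40 across genes, which are not independent). With genes cut into 5 equal sets by span, the median difference from the shortest set to the longest was -0.17, -0.08, 0.01, 0.11 and 0.20, and 55 members fell in the shortest set, 5 in the next and 1 in the middle one. Without members, the shortest set had a median of -0.16 over 2150 genes. The part of span in the members' shift was not tested beyond the removal of its trend given above.

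**Figure D5:**
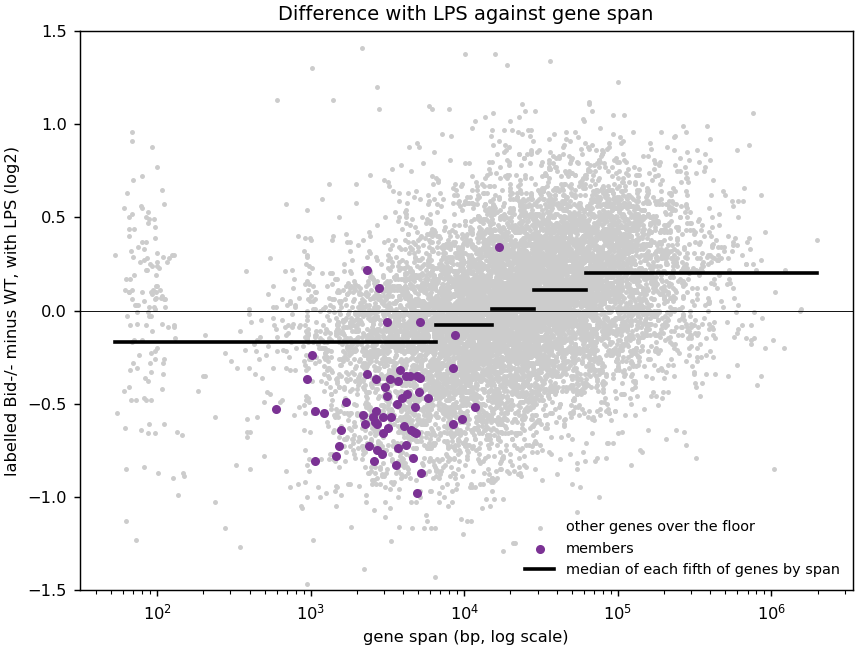
Difference between genotype labels under LPS (labelled Bid-/- minus WT, log2) against gene span in base pairs on a log axis; bars give the median of each of 5 equal sets of genes by span, and 10 of 11017 points lie outside the axes. Members (purple) lie mostly below the bar of the shortest set, at -0.17.

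The arrays carry limits on the labels behind these differences. Bid itself read 5.97 on the LPS array labelled Bid-/-, 5.53 on its control, 5.02 on the WT LPS array and 5.69 on the WT control, so it was not lower under LPS on the array labelled as its knockout; where its probes lie against the deleted part was not known here. Y-linked Eif2s3y and Uty read above WT under the Bid-/- label, by 0.95 and 1.61 with LPS and by 1.00 and 0.91 without, and Nnt, which varies between C57BL/6 substrains, was lower by 0.79 and 0.81. Xist, transcribed from the inactive X chromosome of females, read 8.27 on the LPS array labelled Bid-/-, 7.73 on its control, 8.24 on the WT LPS array and 8.05 on the WT control, and so differed by 0.03 with LPS and by -0.32 without. Genotype, the sex make-up of the cultures, strain background and culture cannot be told apart. Il6 and Tnf were higher with LPS under both labels, by 3.68 and 3.03 for the pair labelled Bid-/- and by 4.47 and 2.87 in WT. Of 11 measured microglia and macrophage markers, 10 or 11 were over the floor on each array, and none of 5 neuron markers was. Markers of other types were also over the floor on each array: 1 to 3 of 6 for astrocytes, 2 or 3 of 5 for the oligodendrocyte lineage and 2 or 3 of 3 for endothelium. The median LPS change of the microglia markers was -0.37 for the pair labelled Bid-/- and -0.13 in WT, and their median genotype difference under LPS was -0.26. Fibroblast and mural markers (9 of 9 measured, 7 over the floor on each array) summed to 49.5 on the LPS array labelled Bid-/-, 50.4 on its control, 51.0 on the WT LPS array and 44.0 on the WT control, so WT control stood apart. Their median LPS change was -0.04 for the pair labelled Bid-/- and 0.76 in WT; the part of these markers in the members' values was not tested. In bulk RNA, fewer cells of a type and less RNA per cell cannot be told apart.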

How the data were processed

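Total RNA of cultured microglia was measured on 4 arrays, 1 per group. The authors deposited log2 expression values, normalized per the submitters' processing notes with RMA (robust multi-array averaging); the notes also list Partek 6.2 and Affymetrix Expression Console, without their roles. There is 1 value for each of 28944 probe sets per array, and that the log is to base 2 is read from the values' range. RMA brings arrays towards a common scale, so a shift of the whole transcriptome cannot be seen here. The deposited arrays still differed at the bright end, where many members lie. The q95 quantile was 9.04 on the LPS array labelled Bid-/-, 9.09 on its control, 9.19 on WT LPS and 9.10 on WT control. The part of this offset in the members' values was not tested beyond the quantile normalization given below. Scanner files were not used here. Precision is limited by having 4 arrays.

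Gene symbols came from the platform annotation (21789 probe sets with 1 symbol, 1621 with several, 5534 with none; all 63 members had a RefSeq entry). The probe set with the highest mean was used per gene. Comparisons took genes that reached the floor of 4.26 on either array compared, and calls were at least 1.5-fold. Trends were removed with lowess (fraction 0.3; statsmodels 0.14.6). The additive fit used limma 3.58.1 in R 4.3.3 (lmFit, eBayes with an intensity trend, Benjamini-Hochberg) on 11326 genes. It was also run on simulated data whose LPS effects were alike under both labels. That run says nothing about opposite changes like those of the members. Other steps used Python 3.11.15, pandas 2.3.3, scipy 1.17.1 and matplotlib 3.10.9. Nothing in the labels says that arrays came from separate cultures or animals. The error behind limma's p-values is taken from the difference of LPS change between labels, moderated over genes. They measure no spread between replicates, and that difference may itself be technical.

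The members, the other gene lists and the comparisons were chosen with earlier results of these data known, so no pattern here is independent support for another. Named members were the extremes of level and of each difference, members with a fixed role, and all members outside the canonical list; of each other list, the 2 lowest and 2 highest genotype differences under LPS. Promoters came from a RefSeq table of GRCm38.p6, with entries for 51 members.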

Additional observations from a re-analysis of the deposited data

Results flagged for a closer look

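Of the 38 named members, 30 had LPS changes of opposite sign under the 2 genotype labels, and 29 of them are listed here. Rpl39l, below the floor on all arrays, is the one left out. Of all genes that reached the floor on any array, 16.9% were below 0 for the pair labelled Bid-/- and above 0 in WT. Named members were chosen in part by these changes, so their count is not a neutral share. With 1 array per group, the difference between them was not tested. With the WT change subtracted from the change for the pair labelled Bid-/-, the median over all members was -0.48. Unless stated otherwise, the change was below 0 for the pair labelled Bid-/- and above 0 in WT. In the small subunit the differences were -0.83 for Rps19, -0.79 for Rps21, -0.73 for Rpsa, -0.74 for Rps29, -0.72 for Rps13, -0.54 for Rps15, -0.52 for Rps14, -0.45 for Rps3a1, -0.42 for Rps18, -0.35 for Rps3 and -0.24 for Rps6. In the large subunit they were -0.78 for Rpl10a and for Rpl13, -0.74 for Rpl34, -0.65 for Rpl36a, -0.57 for Rpl26, -0.40 for Rpl23, -0.38 for Rpl41, -0.34 for Rpl10 and for Rpl21, -0.30 for Rpl22, -0.26 for Rpl5 and -0.06 for Rpl14. The P stalk genes Rplp0 and Rplp1 had -0.43 and -0.42. Of the members outside the canonical list, Rps19bp1 had -0.67, Rps27l -0.55 and Rpl32l -0.39. Rpl30 was the 1 member listed with the signs the other way round, at 0.19.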

How the results depend on the processing

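No direction of a median or of a called value was reversed under the alternatives run, and of the values recomputed for the comparisons 81 stayed close to those reported and 29 moved. Where they moved, the cause was not tested. The median LPS change on the arrays labelled Bid-/- (-0.25) was -0.119 with the intensity trend removed, -0.096 with the gene span trend removed and -0.091 with both, and its count of members at least 1.5-fold changed (0) was 1 with both. The count for the LPS change in WT (1) was 0 at 2-fold, with a mean of at least 9, with the span trend or both trends removed, and among members with 1 probe set, and 3 with the intensity trend removed. The count for the genotype difference under LPS (24) was 0 at 2-fold, 14 with a mean of at least 9, 12 after quantile normalization, 5 without the span trend, 8 without both trends and 7 among members with 1 probe set. Its median (-0.54) was -0.406 after quantile normalization, -0.341 without the span trend and -0.327 without both. The count for the difference of LPS change (17) was 0, 10, 10, 1, 4 and 4 under those same settings, and its median (-0.48) was -0.345, -0.293 and -0.297. At 2-fold, 54 of 11044 genes were lower and 36 higher for the genotype difference under LPS. For the difference of LPS change, 71 of 11326 genes were 2-fold lower and 18 higher. With a mean of at least 9, after quantile normalization and with trends removed, the share of all genes at 1.5-fold was not counted. The lower counts at a mean of at least 9 and among members with 1 probe set come in part from fewer members (38 and 22). In the additive limma fit, quantile normalization gave 1 of 61 members called for LPS, against 0 on the deposited values. Under that normalization 1928 of all 11308 genes were called. The genotype difference of Rpl4 and Rpl14 (-0.06 each) was above 0 with the span trend or both removed, as was that of Rpl4 after quantile normalization and that of Rpl10l (-0.24) with both removed. For the genotype difference under LPS of single members over the floor (61 genes), 163 recomputed values moved and 241 did not; most of the moves came with the span trend removed (58 of 61) or both trends removed (56 of 61). Counting every ribosomal protein probe set, chosen after seeing the data, moved no median by 0.1. No paired analysis was possible because the labels give no replicate numbers that pair arrays; the additive limma fit compares LPS with control within each genotype label. Leaving out a replicate was likewise not possible.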
